A study of Mus musculus with 14 samples.

Results

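YAP and TAZ, the 2 transcriptional coactivators at the end of the Hippo pathway, the TEAD factors that bring them to DNA, and the secreted CCN proteins were followed here as 10 genes, chosen by name: Yap1, Wwtr1 (which encodes TAZ), Tead1, Tead2, Tead3, Ccn1 (Cyr61), Ccn2 (Ctgf), Ccn3 (Nov), Ccn4 (Wisp1) and Ccn5 (Wisp2). Earlier results of these data were known when these genes and the lists used below were chosen. All 10 were found among the 39179 genes of the differentiation table and among the 35886 genes to which the transcripts of the sorted cells were summed, and all 10 passed the filters on low values in both experiments. The cells were Ocy454, a mouse osteocyte-like line immortalized with a temperature-sensitive large T antigen, which is expanded at 33 °C and differentiated by a shift to 37 °C. Poly(A) RNA was sequenced from 8 differentiation libraries, 2 biological replicates each after 1, 7, 10 and 14 days at 37 °C, and from 6 libraries of cells sorted after 17 days at 37 °C, 3 from the 10% of live cells with the highest surface CD61 (CD61high) and 3 from the 10% with the lowest (CD61low). The sorted libraries came from 3 independent groups of cells, and which CD61high and CD61low libraries came from the same group is not given in the sources used here. For the sorted cells the labels and the methods give 17 days, where the paper's results text gives a slightly shorter time. CD61 is integrin beta-3, the product of Itgb3. The labels name no other genetic change and no drug, every library came from the same line on culture plastic, and sorted cells had been detached with trypsin and labelled with antibody, which the differentiation cells had not.

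In the Hippo pathway the MST kinases activate the LATS kinases, which phosphorylate YAP and TAZ and keep them out of the nucleus. Unphosphorylated YAP and TAZ enter the nucleus, where they have no DNA-binding domain of their own and act through TEAD factors on genes such as Ccn1 and Ccn2. The CCN proteins are matricellular: they are secreted into the matrix and bind integrins and proteoglycans. YAP and TAZ activity responds to matrix stiffness and cell shape and is controlled largely by phosphorylation and location, which RNA levels do not measure.

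The letters CATTCC are the core that TEAD factors recognize, and the start sites of the genes were searched for them on both strands, where the other strand reads GGAATG. RefSeq windows on GRCm38.p6, each 300 bases long with 250 bases before the start and 50 after it, were at hand for 5 of the 10 genes, namely Yap1, Wwtr1, Tead2, Tead3 and Ccn1. Such a match stood in 4817 of all 32851 windows (14.7%). The windows of Ccn1, the gene of the set with the highest level, and of the coactivator genes Yap1 and Wwtr1 are printed 5′ to 3′ on the strand of the gene, with the match in capitals. That of Ccn1 is chr3:145649936-145650235 on the minus strand, that of Yap1 is chr9:8004547-8004846 on the minus strand, and that of Wwtr1 is chr3:57575861-57576160 on the minus strand.
Ccn1: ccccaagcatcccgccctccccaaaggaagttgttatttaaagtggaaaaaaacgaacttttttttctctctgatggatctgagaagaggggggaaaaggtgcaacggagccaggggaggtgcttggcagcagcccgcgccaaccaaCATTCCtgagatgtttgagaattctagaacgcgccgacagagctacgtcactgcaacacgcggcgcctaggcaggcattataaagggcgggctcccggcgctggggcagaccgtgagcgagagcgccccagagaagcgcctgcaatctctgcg
Yap1: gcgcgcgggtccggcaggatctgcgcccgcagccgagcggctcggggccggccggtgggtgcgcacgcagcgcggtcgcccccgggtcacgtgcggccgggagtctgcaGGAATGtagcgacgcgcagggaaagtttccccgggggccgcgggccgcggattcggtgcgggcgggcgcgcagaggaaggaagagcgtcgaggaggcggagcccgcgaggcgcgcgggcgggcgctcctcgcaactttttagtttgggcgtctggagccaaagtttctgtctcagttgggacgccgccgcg
Wwtr1: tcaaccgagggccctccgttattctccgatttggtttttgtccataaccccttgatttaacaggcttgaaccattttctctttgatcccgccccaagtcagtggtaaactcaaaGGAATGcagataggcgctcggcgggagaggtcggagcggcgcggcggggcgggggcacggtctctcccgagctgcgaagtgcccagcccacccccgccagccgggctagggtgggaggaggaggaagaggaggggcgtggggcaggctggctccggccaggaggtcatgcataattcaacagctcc
The match began 103 bases before the start of Ccn1, 141 bases before that of Yap1 and 136 bases before that of Wwtr1. A second Wwtr1 window, which overlaps the first, held the same match. Of the 3 windows of Tead3 on chromosome 17, one held 3 matches, one held 1 and one held none, and the single Tead2 window held none. These matches are letters in a window and were not tested as binding sites.

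Before the values are given, the libraries are described. The differentiation libraries held 27518605 to 34311238 reads on genes and the sorted libraries 18815602 to 19220064 estimated counts. Osteoblast and osteocyte markers were present throughout, with Col1a1 the highest of the 11 in every group. They summed to 35421 to 35469 CPM on day 1, 30275 to 30912 on day 7, 23483 to 25265 on day 10, 25445 to 30667 on day 14, 16865 to 20559 in CD61low and 48129 to 50642 in CD61high libraries. Most of each sum was Col1a1, at means of 34709, 27552, 21676, 25242.5, 17664 and 44785 CPM in that order. The sums therefore say little about the other markers. In contrast, the osteocyte genes Fgf23, Mepe and Sost were each at 0 in some groups (Fgf23 at every day and in CD61low cells, Mepe on day 1 and in CD61low cells, Sost on day 1). Of 6 macrophage markers, Adgre1 was at 0 in all groups and only Cd68 exceeded 1 CPM in any library, at means of 1.66 CPM on day 1, 1.68 on day 7, 4.64 on day 10 and 3.34 on day 14. The 4 chondrocyte markers summed to 79.8 to 81.2 CPM on day 1, 75.8 to 77.8 on day 7, 66.6 to 67.7 on day 10 and 102 to 121 on day 14. Endothelial, adipocyte and muscle markers summed to at most 0.861 CPM in any library. Here and below, CPM are reads scaled to a common library total in the differentiation libraries and are TMM-normalized in the sorted ones. Megakaryocyte and platelet markers, whose cells also carry CD61, summed to 17.8 to 19.5 CPM on day 1, 9.76 to 11.6 on the later days and 11.7 to 15.7 in the sorted libraries. The part of these markers in the results of the time course was not tested. TMM factors, which correct for differences in RNA composition, separated the sorted groups, at 0.8953 to 0.9092 in CD61high and 1.096 to 1.128 in CD61low libraries. Scaled by library size alone, the median gene was therefore lower in CD61high cells by a Log2FC of -0.29, and results that turned on this choice are marked. Replicates differed by more than counting noise in every group and were kept as separate samples.

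The first question was how the coactivators, the TEAD factors and the CCN genes changed as Ocy454 cells differentiated. The CCN genes moved in unlike ways: Ccn5 fell 14.9-fold by day 7, Ccn2 and Ccn3 also fell by day 7, and Ccn1 was 2.41-fold higher on day 14 than on day 1. Among the nuclear factors, Tead1 fell 2.35-fold by day 14, and Tead2 and Tead3 rose by less than that. On day 14 the coactivators differed less from day 1, Yap1 downward and Wwtr1 upward. Wwtr1 was highest on day 10, at 1.44-fold its day 1 level. Differences were tested with limma on log2(CPM + 1), on which scale all Log2FC values of the time course are given. Genes are said here to have risen or fallen at an adjusted p below 0.01, and to have been called where the Log2FC was also above 1 or below -1. Comparisons with day 1 share the same day 1 libraries and are not independent of each other.

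From day 1 to day 7, 3 of the 10 genes were called, all lower (Ccn2, Ccn3 and Ccn5), where 9.11% of the 12725 genes tested were called and 4.62% were called lower. From day 1 to day 14, 4 were called, Ccn1 higher and Tead1, Ccn3 and Ccn5 lower, where 13.4% of all genes were called, 7.51% higher and 5.90% lower. Between day 1 and day 10 only Ccn5 was called, where 10.5% of all genes were called and 4.42% were called lower. From day 10 to day 14 Ccn1 alone was called, higher, where 2.96% of all genes were called and 2.09% were called higher. From day 7 to day 10 limma called none of the 10 and edgeR on the recovered reads also called none, although 7 had an unadjusted p below 0.05 with limma and 8 with edgeR, as did 8114 and 8001 of the 12725 genes tested. Over all genes 2.22% were called by limma in that step, which is 282, and 550 were called by edgeR. When any fold was taken at that adjusted p, all 10 changed by day 7 and by day 10 and 9 by day 14, where 56.5%, 63.5% and 68.6% of all genes did. In the later steps 7 changed between days 7 and 10 and 9 between days 10 and 14, where 48.7% and 52.8% of all genes did.

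**Figure D1:**
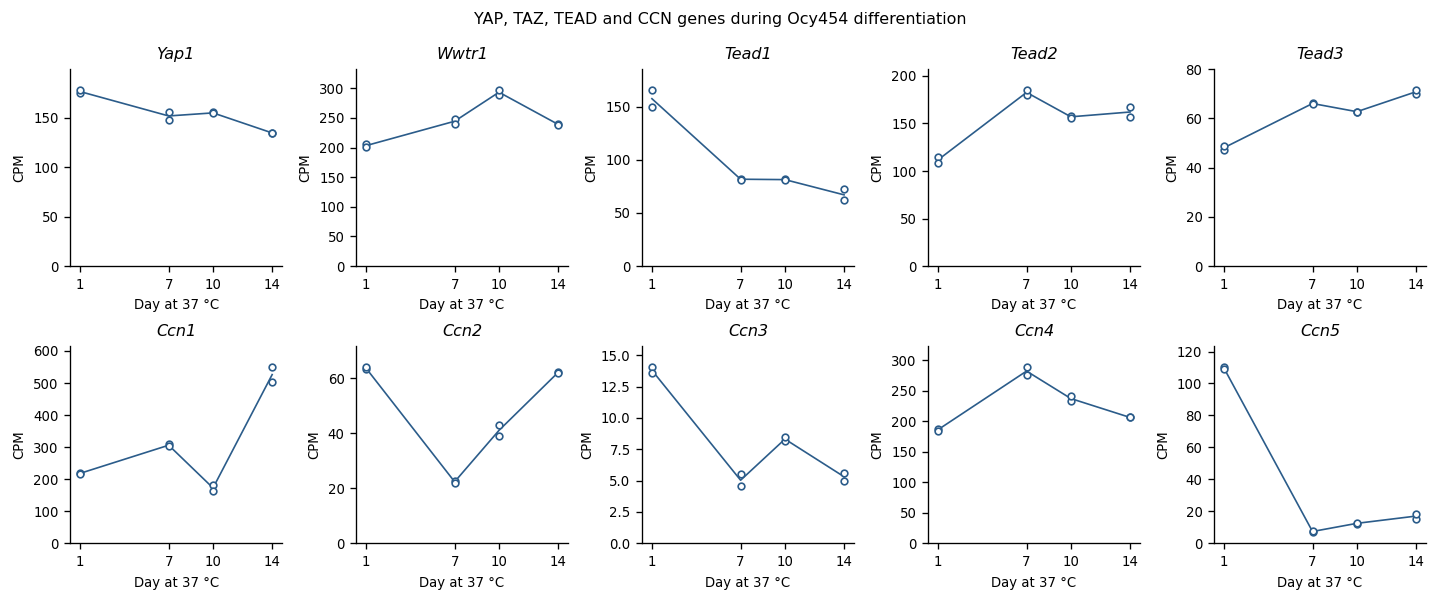
CPM of each gene (vertical axes, each from 0) against days at 37 °C, with 1 circle per library (2 per day) and a line through the day means. Ccn5 dropped from 109.7 to 7.36 CPM between days 1 and 7, Ccn2 dipped to 22.4 CPM and came back to 62.1 CPM, and Ccn1 reached 526 CPM on day 14.

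Yap1 (GRCm39 chr9:7932000-8004661) encodes YAP. It stood at 175 and 178 CPM on day 1, 156 and 147 on day 7, 155 and 154 on day 10, and 135 and 134 on day 14. All libraries of the later days lay below both day 1 libraries, and day 14 was lowest. The fall by day 14 was 23.7% of the day 1 mean, with a Log2FC of -0.39 ± 0.04 (SE) and an adjusted p of 1.3e-09 by limma. Days 7 and 10 overlapped and did not differ by the test (Log2FC 0.03, 95% interval -0.05 to 0.11).

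Wwtr1 (chr3:57363067-57483331), the TAZ gene, went the other way. Its levels were 206 and 201 CPM on day 1, 248 and 240.4 on day 7, 289 and 297 on day 10, and 239 and 239 on day 14. Day 10 was highest and day 1 lowest, with no overlap between those days and any other. By limma it rose from day 1 to day 10 by a Log2FC of 0.53 ± 0.04 (adjusted p = 9.8e-13), then fell to day 14 by 0.29 (adjusted p = 1.2e-07). Per kilobase of the gene length in the table, the Wwtr1 to Yap1 ratio was 1.38 and 1.32 on day 1, 1.86 and 1.91 on day 7, 2.18 and 2.26 on day 10, and 2.08 and 2.08 on day 14. All later libraries thus had a higher ratio than either day 1 library. The size of the ratio, unlike its order between libraries, depends on the gene lengths used, 9480 bases for Yap1 and 8100 for Wwtr1.

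The TEAD factors are alike in their DNA-binding domain and in the domain that holds YAP and TAZ. Tead1 (chr7:112278522-112506014) stood at 166 and 149 CPM on day 1, 82.1 and 81.3 on day 7, 81.6 and 81.1 on day 10, and 72.1 and 61.9 on day 14. Most of its fall had taken place by day 7, and both day 14 libraries were below all others. The Log2FC of -1.22 ± 0.06 on day 14 (adjusted p = 1.1e-16, limma) passed the fold threshold, and those of -0.94 on days 7 and 10 did not. Without the second day 1 replicate they were -1.01 and -1.02 and passed it.

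Tead2 (chr7:44865172-44883071) rose from 115 and 109 CPM on day 1 to 180.1 and 185 on day 7, then stood at 158 and 156 on day 10 and 156 and 168 on day 14. Its Log2FC was 0.71 ± 0.04 on day 7 (adjusted p = 4.9e-14) and 0.53 ± 0.04 on day 14 (adjusted p = 9.7e-12), both by limma. Tead3 (chr17:28550645-28569791) stood at 47.2 and 48.8 CPM on day 1, 66.2 and 65.9 on day 7, 62.6 and 62.8 on day 10, and 70.1 and 71.6 on day 14. For both genes every later library was above both day 1 libraries. The Tead3 Log2FC on day 14 was 0.55 ± 0.05 (adjusted p = 5.2e-11, limma). Tead4, the TEAD gene outside the set, was called higher on day 14, at 15.5 ± 0.794 CPM on day 1 and 39.5 ± 0.804 on day 14 (SD, n = 2 each).

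On the per-kilobase scale the make-up of the TEAD total shifted accordingly. Tead1 held 26.1% and 24.5% of it on day 1 and 9.17% and 7.60% on day 14, while Tead4 went from 7.62% and 8.54% to 16.1% and 16.0%. Tead2 was the largest part in every library on this scale, at 50.2% and 49.7% on day 1 and 55.5% and 57.5% on day 14. Tead3 held 16.1% and 17.3% on day 1 and 19.3% and 19.0% on day 14. The share of Tead1 had already dropped to 10.1% and 9.75% on day 7. Without the length term Tead1 was the largest part on day 1, at 48.4% and 46.2%, and stood at 21.4% and 18.1% on day 14. On that scale the day 14 minus day 1 difference was -27.6 percentage points for Tead1, 14.2 for Tead2 and 6.40 for Tead3, beside -16.9, 6.50 and 2.45 per kilobase.

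**Figure D2:**
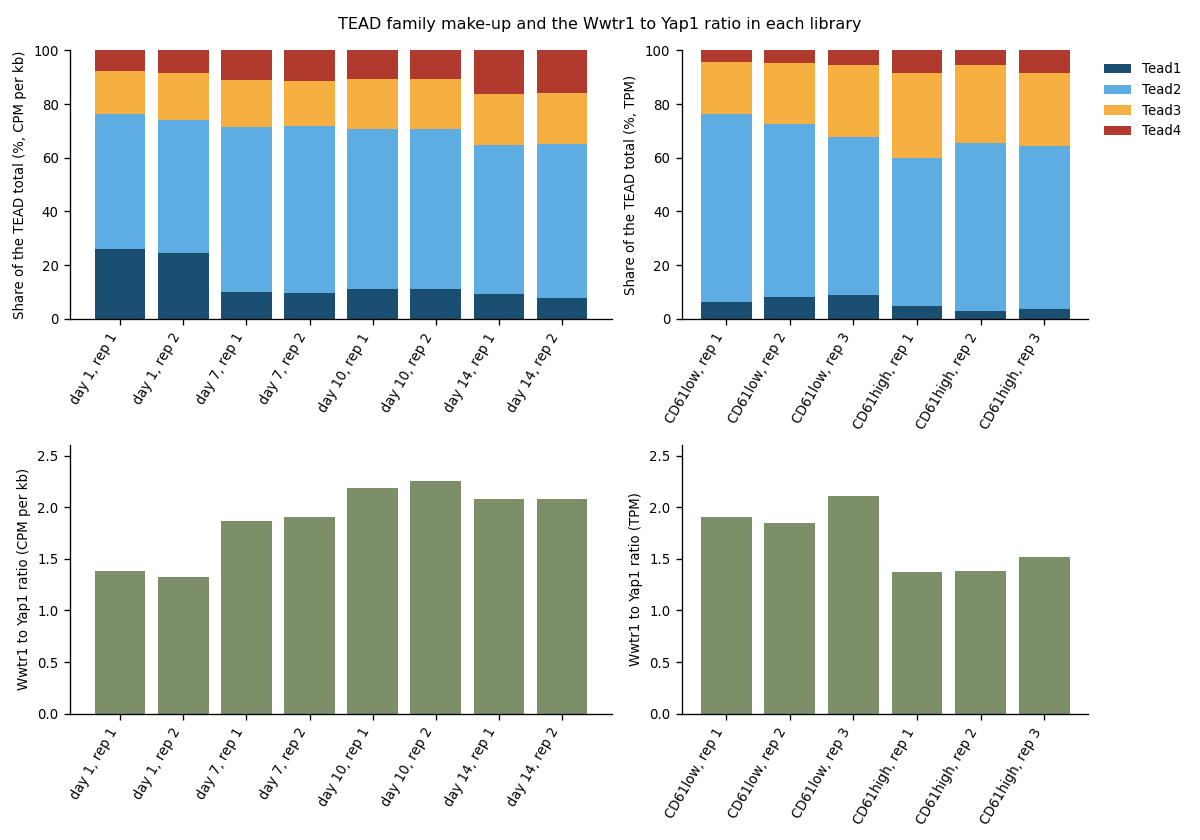
Upper panels show the share of each TEAD gene in the TEAD total (%) and lower panels the Wwtr1 to Yap1 ratio, with 1 bar per library, on CPM per kb for the days (left) and TPM for the sort (right). The Tead1 share dropped after day 1, and the ratio was higher after day 1 but lower in CD61high than in CD61low libraries.

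Ccn1 (chr3:145352720-145355738), an immediate early gene and one of the most used readouts of YAP and TAZ, did not follow a steady course. It stood at 219 and 217 CPM on day 1, 308 and 304 on day 7, 181 and 164 on day 10, and 549.6 and 503 on day 14. No 2 days overlapped, with day 10 below day 1 and day 14 above all others. The steps, each tested by limma, were a rise to day 7 (Log2FC 0.49 ± 0.04, adjusted p = 2.8e-10), a fall from day 7 to day 10 of 0.82 (adjusted p = 2.6e-14) and a rise from day 10 to day 14 (Log2FC 1.60 ± 0.04, adjusted p = 2.5e-20). The 16 immediate early genes of a list that leaves out Ccn1 summed to 293 to 314 CPM on day 1, 1137 to 1156 on day 7, 971 to 1033 on day 10 and 1256 to 1277 on day 14. Klf4 was the highest of the 16 from day 7 on, at means of 656 CPM on day 7, 533 on day 10 and 561 on day 14. From day 7 to day 10 the sum was lower, but 10 of the 16 genes rose and 4 fell by limma, where 48.7% of all genes changed in either direction, with a median Log2FC of 0.57 beside 0.07 for all genes. The part of these genes in the Ccn1 result was not tested.

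Ccn2 (chr10:24471333-24474900), the other common readout, had a different course. It stood at 63.4 and 64.0 CPM on day 1, 22.7 and 22.0 on day 7, 42.9 and 39.2 on day 10, and 62.3 and 62.0 on day 14. The level thus dropped 2.85-fold and then climbed back close to where it began. The drop on day 7 had a Log2FC of -1.47 ± 0.06 (adjusted p = 2.7e-18) and the rise from day 7 to day 10 one of 0.85 ± 0.06 (adjusted p = 1.4e-12), by limma. On day 14 the difference from day 1 did not pass the test, with a Log2FC of -0.04 and a 95% interval of -0.15 to 0.08.

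Ccn3 (chr15:54609012-54620154), which is known to restrain osteoblast differentiation, was the lowest of the 10. Its levels were 14.1 and 13.5 CPM on day 1, 5.52 and 4.54 on day 7, 8.18 and 8.44 on day 10, and 4.98 and 5.63 on day 14, which came from 129 to 476 reads a library. Days 7 and 14 overlapped and lay below day 10, which lay below day 1. The Log2FC against day 1 was -1.30 ± 0.11 on day 7 (adjusted p = 3.9e-11) and -1.23 ± 0.11 on day 14 (adjusted p = 7.1e-11), by limma.

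Ccn4 (chr15:66763060-66795050), known as a Wnt-induced gene of the osteoblast lineage, stood at 187 and 185 CPM on day 1, 289 and 276 on day 7, 232 and 242 on day 10, and 206 and 206 on day 14. It was highest on day 7 and declined from there, with every later library still above day 1. By limma the Log2FC against day 1 was 0.60 ± 0.04 on day 7 (adjusted p = 1.6e-13) and 0.15 ± 0.04 on day 14 (adjusted p = 0.00086).

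Ccn5 (chr2:163662753-163675066), which lacks the C-terminal module of the other CCN proteins, had the widest range as a fold. It stood at 110.2 and 109 CPM on day 1, 6.84 and 7.88 on day 7, 12.1 and 12.9 on day 10, and 15.4 and 18.6 on day 14. After the drop it rose at each later day, and it stayed far below day 1. Against day 1 the Log2FC by limma was -3.73 ± 0.08 on day 7 (adjusted p = 2.7e-23) and -2.63 ± 0.08 on day 14 (adjusted p = 4.4e-20). The rise from day 7 to day 10 had a Log2FC of 0.69 ± 0.08 (adjusted p = 1e-07) and that from day 10 to day 14 one of 0.41 ± 0.08 (adjusted p = 0.00012), by limma.

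In CPM per kb, Ccn1 was the highest of the 10 genes at every day and Ccn3 the lowest. Ccn1 stood at 108 ± 0.490 on day 1 and 260.1 ± 16.3 on day 14, and Ccn3 at 4.82 ± 0.124 and 1.85 ± 0.160 (SD, n = 2 each). Ccn5 came next after Ccn1 on day 1, with 51.3 ± 0.313 CPM per kb, and was among the lowest 3 genes on the later days. The place after Ccn1 passed to Ccn4 on days 7 and 10 and to Tead2 on day 14. No neighbours in this order overlapped between their replicates on any day, though with 2 libraries a day this is a weak criterion. The order also rests on the gene lengths used, 9480 bases for Yap1 and 8100 for Wwtr1, beside 2023 for Ccn1. The main transcript models in the sort were 4115 and 4171 bases for Yap1, 4697 for Wwtr1 and 2019 for Ccn1. An order by model length was not made, so places between genes hold only for the lengths used.

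The second question was how these genes differed between CD61high and CD61low cells of the same age. Ccn3 and Ccn5 were lower in CD61high cells, by 15.0-fold and 4.23-fold, and Ccn2 was 2.18-fold higher. Ccn1, Ccn4 and Tead3 were also higher and Wwtr1 and Tead1 lower, with smaller differences, and Yap1 was level. Values are TMM-normalized CPM, and edgeR's quasi-likelihood test was run on 12077 genes. Itgb3, which was sorted on, stood at 5.65 ± 0.408 in CD61low and 111 ± 16.4 in CD61high cells (SD, n = 3 each). A lower level in a sorted population can come from fewer cells that express a gene or from less RNA in each, which bulk libraries cannot tell apart.

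Of the 10 genes, 3 were called, Ccn2 higher and Ccn3 and Ccn5 lower, where 9.22% of all genes were called, 4.84% higher and 4.37% lower. When any fold was taken at that adjusted p, 8 of the 10 differed, where 35.4% of all genes did. With scaling by library size alone, 3 were again called, but they were Tead1, Ccn3 and Ccn5, all lower, where 10.6% of the 12045 genes tested that way were called, 316 higher and 963 lower.

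**Figure D3:**
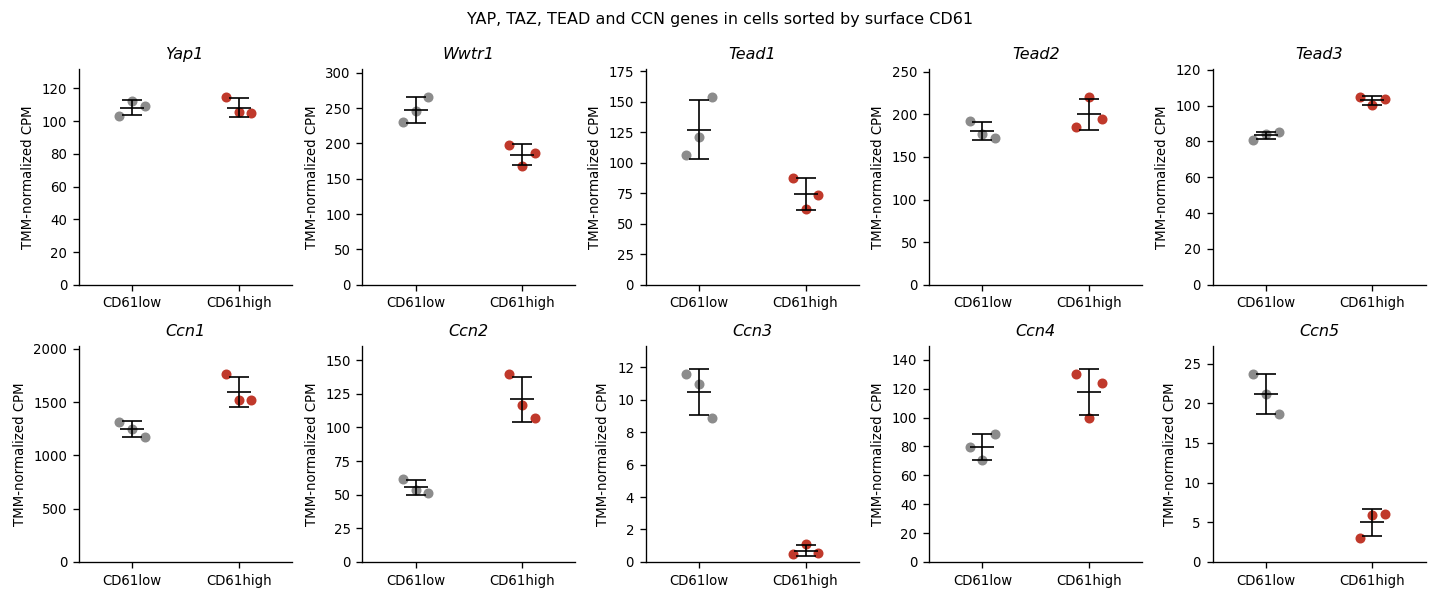
TMM-normalized CPM of each gene (vertical axes, each from 0) in 3 CD61low libraries (grey) and 3 CD61high libraries (red), with the mean and SD in black. Ccn3 was between 8.88 and 11.6 in CD61low and at most 1.09 in CD61high libraries, and Ccn2 was above 100 only in CD61high libraries.

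Yap1 was at 103, 112 and 109 in CD61low and at 115, 105 and 105 in CD61high libraries. The groups overlapped, with a Log2FC of 0.00 and a 95% interval of -0.16 to 0.16 (edgeR). Wwtr1 was at 229.9, 246 and 266 in CD61low and at 197, 169 and 186 in CD61high libraries, with no overlap. Its Log2FC was -0.43 ± 0.08 (adjusted p = 0.0018, edgeR). With library size alone, Yap1 was lower by a Log2FC of -0.30 (adjusted p = 0.0045, edgeR), beside -0.29 for the median gene. In TPM, the Wwtr1 to Yap1 ratio was 1.91, 1.85 and 2.11 in CD61low and 1.37, 1.38 and 1.52 in CD61high libraries. Every CD61high library was below every CD61low one, and the exact two-sided permutation test gave p = 0.1, the smallest value that 3 against 3 libraries allow.

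Among the TEAD genes, Tead1 was at 106, 121 and 154 in CD61low and at 87.6, 61.9 and 73.4 in CD61high libraries. These did not overlap, and the Log2FC was -0.78 ± 0.15 (adjusted p = 0.0016, edgeR), or -1.08 with library size alone. Tead3 was at 80.9, 84.0 and 85.1 in CD61low and at 105, 100.2 and 103.8 in CD61high libraries, again without overlap (Log2FC 0.30 ± 0.07, adjusted p = 0.0032, edgeR). That difference was 0.00 on the log2 scale with library size alone (adjusted p = 0.97, edgeR). Tead2 was at 192, 177 and 172 in CD61low and at 185, 220.4 and 195 in CD61high libraries, which overlapped (Log2FC 0.15, 95% interval -0.03 to 0.33). With library size alone its Log2FC was -0.15. Tead4, outside the set, was at 19.6, 18.8 and 24.8 in CD61low and at 34.7, 23.3 and 31.8 in CD61high libraries. These overlapped, and the difference did not pass the test (Log2FC 0.51 ± 0.16, adjusted p = 0.02, edgeR).

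In TPM, Tead1 made up 6.16%, 7.99% and 9.05% of the TEAD total in CD61low and 4.79%, 2.95% and 3.49% in CD61high libraries. Tead3 made up 19.4%, 22.8% and 26.7% against 31.4%, 29.0% and 27.0%, and Tead4 4.30%, 4.58% and 5.41% against 8.55%, 5.47% and 8.48%. For these 3 shares the groups did not overlap, by a narrow margin for Tead3 and Tead4, and the exact two-sided permutation test gave its smallest p, 0.1. On TMM-normalized CPM per kb the Tead4 shares of the groups overlapped (exact permutation p = 0.2, two-sided). The Tead2 share overlapped, at a mean of 64.5% in CD61low and 59.6% in CD61high libraries (exact p = 0.4, two-sided), and on CPM scales its difference had the opposite sign. TPM sums of Tead2, Tead3 and Ccn2 include short transcript models. The 347-base retained-intron model of Tead3 was at 0, 0 and 27.1 TPM in CD61low and at 27.1, 31.1 and 13.2 TPM in CD61high libraries. Its means were 9.04 and 23.8 TPM, beside 78.3 and 92.9 TPM for all Tead3 models, so the group difference in Tead3 TPM was about that of this 1 model. The Tead3 share was higher in CD61high cells by 6.17 percentage points in TPM and by 2.88 on TMM-normalized CPM per kb, on which the groups did not overlap either. The 343-base model Ccn2-202 took a mean of 19.8% of Ccn2 TPM in CD61low and 26.1% in CD61high libraries.

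Ccn1 was at 1316, 1249.8 and 1169.8 in CD61low and at 1763, 1516 and 1518 in CD61high libraries. All CD61high libraries were higher, by a Log2FC of 0.36 ± 0.08 (adjusted p = 0.0047, edgeR), but with library size alone this came to 0.06 (adjusted p = 0.56). The immediate early list without Ccn1 summed to 2287 to 2601 CPM in CD61low and 3743 to 4428 in CD61high libraries. Of its 16 genes, 5 (Fosb, Ier3, Fos, Klf2 and Nr4a1) were called higher and 1, Atf3, lower, beside 4.84% and 4.37% of all genes, with a median Log2FC of 0.68 beside 0.00 for all genes, and with library size alone 1 was called in each direction, where 316 of 12045 genes were called higher and 963 lower. Without the first CD61high replicate the calls of Fos (Log2FC 0.90) and Nr4a1 (0.97) were lost, and that of Nr4a1 was also lost without the second CD61low replicate (0.97). Their part in the Ccn1 difference was not tested. The level of Ccn1 was higher in all 6 sorted libraries than at any day of the time course, but the tables were made by different methods from cells handled differently and were not compared by a test.

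Ccn2 was at 61.5, 53.2 and 51.5 in CD61low and at 139.6, 116 and 107 in CD61high libraries. The groups stood far apart, with a Log2FC of 1.13 ± 0.11 (adjusted p = 1.7e-05, edgeR). With library size alone it was 0.83 (adjusted p = 7.4e-05), under the fold threshold. Ccn4 was at 79.4, 70.3 and 88.5 in CD61low and at 130.0, 99.9 and 124 in CD61high libraries, without overlap. Its Log2FC was 0.57 ± 0.11 (adjusted p = 0.0019, edgeR), and 0.27 with library size alone (adjusted p = 0.044).

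Ccn3 was at 11.6, 11.0 and 8.88 in CD61low and at 0.469, 1.09 and 0.529 in CD61high libraries. The CD61high values rest on 8, 19 and 9 estimated counts and the CD61low values on 242, 234 and 182. The Log2FC was -3.89 ± 0.27 (adjusted p = 1.8e-06, edgeR). Ccn5 was at 23.7, 21.2 and 18.6 in CD61low and at 2.99, 5.93 and 6.06 in CD61high libraries, with a Log2FC of -2.08 ± 0.22 (adjusted p = 2.7e-05, edgeR). For both genes the groups stood apart, and with library size alone both stayed called, at -4.19 and -2.38. The 4 chondrocyte markers, mostly Sox9, summed to 37.4 to 47.1 CPM in CD61low and 96.4 to 113 in CD61high libraries, and the 6 macrophage markers, of which Cd68 alone exceeded 1 CPM, to 12.3 to 15.5 and 7.59 to 8.68. The part of these markers in the results of the sort was not tested.

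Ccn6, the remaining CCN gene, had 5 to 14 reads in each differentiation library and 0 or 1 estimated count in each sorted library. In the sort, TPM again put Ccn1 highest, at 1161 ± 37.2 in CD61low and 1199.9 ± 146 in CD61high cells, and Ccn3 lowest, at 8.33 ± 0.914 and 0.443 ± 0.206 (SD, n = 3 each). Next after Ccn1 came Tead2, and then Wwtr1 in CD61low and Ccn2 in CD61high cells. The neighbours Ccn2 and Yap1 and the neighbours Ccn5 and Tead1 overlapped in CD61low cells, as did Ccn2 and Tead3 and also Yap1 and Ccn4 in CD61high cells. On TMM-normalized CPM per kb the named places were the same, but Tead2 and Ccn2 overlapped in CD61high cells. Tead3, at place 4 in TPM in both groups, was at place 5 in CD61low and 6 in CD61high cells on that scale.

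**Figure D4:**
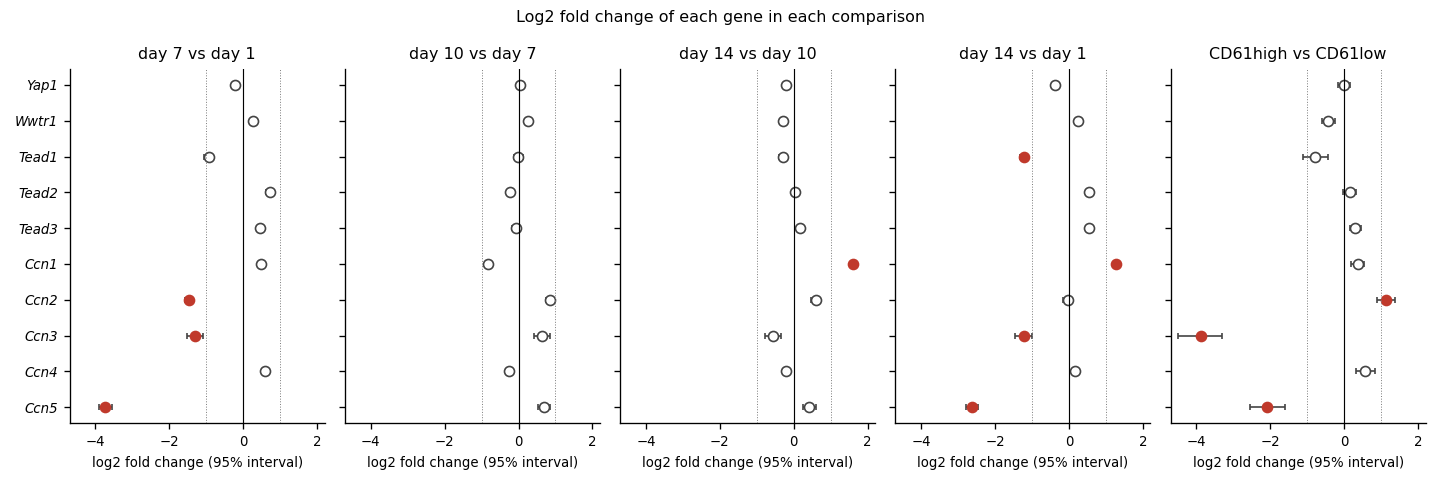
Log2FC of each gene with its 95% interval (horizontal) in 4 comparisons of days (limma) and in the sort (edgeR, TMM scaling). Filled red points were called, and dotted lines mark a Log2FC of -1 and 1. Ccn5 lay to the left of -1 on days 7 and 14 against day 1 and in CD61high against CD61low cells. Ccn2 was called lower on day 7 against day 1 and higher in CD61high cells.

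The third question was how the genes around this set behaved, taken from lists of pathway genes. Among 24 genes of the Hippo kinase cassette and its upstream regulators, 23 were tested. On day 14 against day 1, 1 was called higher and 3 lower, where 7.51% of all genes were called higher and 5.90% lower, with a median Log2FC of -0.10 beside -0.03 for all genes. The gene called higher was Wwc1, which encodes the scaffold KIBRA, at 3.31 ± 0.0299 and 8.51 ± 0.247 CPM (SD, n = 2 each). Those called lower were Amot, which encodes the YAP-binding protein angiomotin, at 325 ± 5.68 and 86.9 ± 1.77 CPM, the LIM protein gene Ajuba, at 131.0 ± 0.222 and 41.2 ± 0.136 CPM, and the atypical cadherin gene Fat4. In the sort only Fat4 was called, where 9.22% of all genes were, at 31.7 ± 8.23 in CD61low and 9.85 ± 3.41 in CD61high cells (SD, n = 3 each), and the list's median was 0.02 beside 0.00 for all genes. Library size alone added Ajuba as lower, where 963 of 12045 genes were called lower.

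Of 9 cofactors of YAP and TEAD, 6 were tested. Tead4 was called higher and Vgll3 lower on day 14, and Runx2 higher and Vgll3 lower in CD61high cells, where 13.4% and 9.22% of all genes were called. The list's median Log2FC was 0.11 on day 14, beside -0.03 for all genes, and 0.36 in the sort, beside 0.00. Vgll3, whose product binds TEAD factors, stood at 96.6 and 96.6 CPM on day 1, 21.4 and 21.1 on day 7, 16.9 and 18.9 on day 10, and 18.2 and 20.6 on day 14. In the sort it was at 35.7, 41.2 and 45.2 in CD61low and at 6.04, 7.89 and 5.82 in CD61high libraries, with a Log2FC of -2.62 ± 0.14 (adjusted p = 4.7e-07, edgeR). Vgll3 was thus lower in every later library and in every CD61high library. Vgll4, a repressor of the same complex, did not pass the test on day 14 (Log2FC -0.06, adjusted p = 0.23, limma) and was higher in CD61high cells by a Log2FC of 0.43 (adjusted p = 0.00039, edgeR), or 0.12 with library size alone (adjusted p = 0.13). Runx2, the osteoblast master regulator, was at 169.6 ± 25.1 in CD61low and 399 ± 34.1 in CD61high cells, a call that library size alone lost (Log2FC 0.93).

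Of 20 other YAP and TAZ target genes in wide use, 19 were tested. Amotl2, Lats2 and Ptpn14 stand both in this list and in that of the Hippo genes. On day 14, none was called higher and 7 were called lower, beside 7.51% and 5.90% of all genes in these directions. The median Log2FC was -0.84 beside -0.03 for all genes, whereas Ccn1 was called higher and Ccn2 did not differ from day 1 by the test. Ccdc80, Ankrd1, Nuak2, Crim1 and Myof had the largest falls, with Log2FC values from -2.41 to -1.37. Gadd45a, a stress gene at a Log2FC of -1.01, was no longer called with TMM scaling (-0.98), without the first day 1 replicate (-0.99) or without the second day 14 replicate (-0.91). Ankrd1, which encodes a stretch-responsive ankyrin repeat protein, stood at 47.8 and 50.9 CPM on day 1, 7.53 and 7.18 on day 7, 9.92 and 7.83 on day 10, and 10.9 and 13.2 on day 14. Its drop had therefore occurred by day 7, as that of Ccn2 had, but it did not return to the day 1 level. Amotl2, a YAP-binding protein gene, was lower on day 14 by a Log2FC of -0.85 (adjusted p = 2.2e-15) and Lats2, the kinase gene, higher by 0.30 (adjusted p = 5.3e-07), by limma and under the fold threshold.

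In CD61high cells, 1 of the 19 targets was called higher and 3 lower, where 4.84% of all genes were called higher and 4.37% lower, with a median of -0.03 beside 0.00 for all genes. With library size alone none was called higher and 4 lower, where 316 of 12045 genes were called higher and 963 lower, with a median of -0.33 beside -0.29. Ankrd1 had the largest difference, at 23.1, 28.5 and 20.2 in CD61low and 1.88, 2.30 and 2.00 in CD61high libraries (Log2FC -3.53 ± 0.18, adjusted p = 3.3e-07, edgeR). The other 2 lower genes were Nuak2, which encodes a kinase, and Gadd45a, and the higher gene was Tgfb2, a growth factor, at 109.5 ± 12.7 and 247 ± 33.0. Ccn2 and Ankrd1, both readouts of the same coactivators, therefore differed in opposite directions in the sort. Amotl2 was lower by a Log2FC of -0.61 (adjusted p = 6.8e-05), and Lats2 did not differ by the test (Log2FC 0.13, adjusted p = 0.25), by edgeR.

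**Figure D5:**
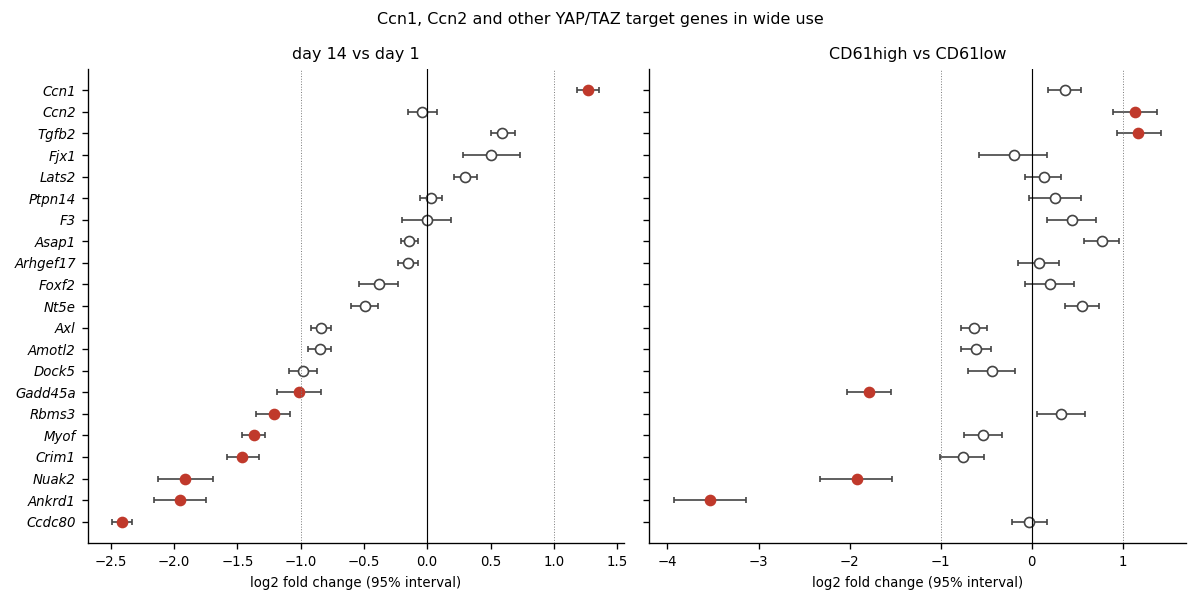
Log2FC with 95% interval (horizontal) of Ccn1, Ccn2 and 19 other YAP and TAZ target genes on day 14 against day 1 (left, limma) and in CD61high against CD61low cells (right, edgeR, TMM scaling). Red points were called: on day 14 Ccn1 was higher and 7 others lower, and in the sort Ccn2 and Tgfb2 were higher and Ankrd1, Nuak2 and Gadd45a lower.

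All 10 genes of a list of CCN receptors and binding partners were tested. On day 14, Itgb3 and Sdc4, a heparan sulfate proteoglycan gene, were called higher and Itga5, the fibronectin receptor subunit gene, lower. In CD61high cells Itgb3, on which the sort was made, and Itgb1, another integrin subunit gene, were called higher. Itga6, a laminin receptor subunit gene, and Notch1, a receptor that binds CCN3, were called lower in them. Over all genes 13.4% were called on day 14 and 9.22% in the sort. The list's median Log2FC was -0.23 on day 14, beside -0.03 for all genes, and 0.25 in the sort, beside 0.00. Itga6 was no longer called with an offset for transcript length (Log2FC -0.93). Itgb1 was at 1104 ± 67.1 in CD61low and 2377 ± 96.6 in CD61high cells (SD, n = 3 each), a call that library size alone lost (Log2FC 0.81). Notch1 was at 56.4 ± 5.67 in CD61low and 22.6 ± 1.99 in CD61high cells. Of the immediate early list, 11 of 16 were called higher on day 14 and none lower, beside 7.51% and 5.90% of all genes. The median Log2FC of that list was 1.81, beside -0.03 for all genes. The largest were Nr4a1, Klf4, Egr1, Egr2 and Egr3, all transcription factor genes, with Log2FC values from 2.69 to 3.65.

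The pattern of each gene over the 8 differentiation libraries was set beside that of 10313 genes that averaged 5 CPM or more. The highest Pearson correlations of log2(CPM + 1), given as descriptions, were 0.998 for Ccn1 with Bsn, 0.998 for Ccn5 with Sgk1 and 0.997 with Gas1, and 0.985 for Ccn2 with Epha2. They were 0.994 for Ccn3 with Phf13 and 0.988 for Ccn4 with Npnt, 0.992 for Yap1 with Fam20a, 0.995 for Wwtr1 with Dab2ip, 0.997 for Tead1 with Pigk, 0.999 for Tead2 with Dym and 0.999 for Tead3 with Rnf144b. Values this high are reached with 8 libraries that fall into 4 days.

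The transcripts behind the sums in the sort differed in how well they were resolved. Wwtr1 came almost wholly from Wwtr1-201, at a mean of 99.5% of its TPM in CD61low and 99.8% in CD61high cells, and Ccn1 and Ccn3 had 1 transcript model each above 1 TPM on average over the 6 libraries, though that of Ccn3 was at most 0.681 TPM in CD61high libraries. Yap1 was divided between Yap1-202, at means of 54.3% and 39.1%, and Yap1-201, at 39.9% and 53.9%, which are 4115 and 4171 bases long. Salmon's split between models this alike varied between libraries, with Yap1-202 from 48.5% to 65% in CD61low libraries. Tead1 came mostly from Tead1-202, at 57% and 60.7%. No test was made on these shares.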

How the data were processed

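RNA of 14 Ocy454 libraries was analysed. For the differentiation libraries the authors used STAR for mapping and HTSeq for counting, and deposited CPM, scaled to library totals. The submitters' processing notes name GRCm39. All 313432 deposited CPM values lay within 0.01 of a whole read, so reads were recovered. For the sorted cells the authors deposited Salmon's estimated counts and TPM per transcript on GRCm39. Of 116747 transcripts, 115556 were matched to GENCODE M39 (99.3% to 99.43% of counts) and summed to genes. TPM entered levels, ratios and transcript shares, not tests across genes.

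Time course: limma 3.58.1 (eBayes with trend, 8 libraries, no block) on log2(CPM + 1), for genes above 1 CPM in at least 1 library. Sort: edgeR 4.0.16 quasi-likelihood test on rounded counts with TMM factors, for genes whose normalized count was 5 or more in each of 6 libraries. Both used Benjamini-Hochberg adjustment over all genes tested, in R 4.3.3, and were tested on simulated data. A call needed a Log2FC beyond 1 in size besides an adjusted p under 0.01. The methods call the replicates of a day biological but do not say how they were separated, so p-values measure the spread between these libraries. Tables and figures were made with Python 3.11.15, pandas 2.3.3 and matplotlib 3.10.9.

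The genes and lists were chosen with earlier results of these data known. All 10 genes are described. From each list up to 5 called genes with the largest Log2FC are named at day 14 and in the sort, plus Tead4, Ccn6, Vgll3, Vgll4, Ankrd1, Amotl2 and Lats2 always. Single genes beyond these are named where they explain a count and were chosen after their values were seen. Coordinates are from GENCODE M39 on GRCm39 and promoter windows from RefSeq on GRCm38.p6. Alternatives were a pseudocount of 0.1, other filters, edgeR or TMM scaling on recovered reads, DESeq2 1.42.0, other size factors, a length offset, fits on 4 libraries, a replicate block, any fold, and each library left out. The ratios on TMM-normalized CPM per kb were added after seeing the data.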

Additional observations from a re-analysis of the deposited data

How the results depend on the processing

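The number of the 10 genes called kept within 1.5 times of its value under every other scaling, filter, tool and block, and moved only with the fold threshold and with 1 library. At any fold it was 10 at day 7 and 10 at day 10 against day 1, 9 at day 14 against day 1, 7 at day 10 against day 7, 9 at day 14 against day 10, and 8 in the sort. With each library left out in turn it was 3 to 4 for day 7 and 1 to 2 for day 10 against day 1, the higher count coming without the second day 1 replicate (Tead1), 4 to 4 for day 14, 0 to 0 and 1 to 1 for the later steps and 3 to 3 in the sort. An equal count can hide a change of genes: in the sort, library size alone called Tead1 (Log2FC -1.08) in place of Ccn2 (0.83). Genes called in all were 282 at day 10 against day 7 and 377 at day 14 against day 10, but 552 and 671 with a pseudocount of 0.1 and 550 and 731 with edgeR. With TMM scaling 53.3% of calls at day 10 against day 7 were higher, beside 64.5% with deposited CPM, and with library size alone 24.7% of calls in the sort, beside 52.6%. Among the Log2FC values of single genes, those that changed direction were small. Yap1 at day 10 against day 7 was -0.041 with edgeR, -0.04 with TMM scaling and -0.01 to 0.069 with a library left out, Tead1 there -0.013 to 0.00013, and Tead2 at day 14 against day 10 -0.0063 to 0.095. In the sort Yap1 was -0.0032 with DESeq2 or RLE size factors, -0.015 with TMM after the filter, -0.30 with library size alone and -0.042 to 0.021 with a library left out. With library size alone Tead2 was -0.15 and Lats2 -0.17, and Ccdc80 ranged from -0.094 to 0.043 with a library left out. Without a length term the day 14 minus day 1 differences were 0.625 for the Wwtr1 to Yap1 ratio and -27.6, 14.2, 6.40 and 6.96 percentage points for the Tead1, Tead2, Tead3 and Tead4 shares. In the sort, CD61high minus CD61low, they were -12.5 for Tead1 and 5.23 for Tead2 without a length term, and on TMM-normalized CPM per kb -6.63 for Tead1, 1.30 for Tead2, 2.88 for Tead3 and -0.686 for the ratio. The Tead2 share thus turned from -4.91 in TPM, and that of Tead3 came down from 6.17. The cause of these shifts was not tested.

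No pairing by replicate number was seen between days, where deviations of same-numbered libraries correlated at -0.03 to 0.06. In the sort they correlated at -0.32, 0.22 and -0.06, and libraries with different numbers ranged from -0.41 to 0.47. With 2 or 3 libraries of a group this check cannot exclude pairing. With the replicate number as a block, the genes of the set called were 3, 1, 4, 0, 1 and 3 in the order day 7, 10 and 14 against day 1, the later steps and the sort, as without it, and 1083 genes were called in the sort, beside 1113. The 2 or 3 libraries of a group limit all estimates, and 3 reads, the limit that a count of 0 allows, correspond to 0.0874 to 0.109 CPM in the time course and 0.1561 to 0.1594 in the sort, for counting error only.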
